A study of Mus musculus with 8 samples.

Results

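Heterotrimeric G proteins carry signals from platelet receptors into the cell, and RGS proteins switch those signals off. The genes described here are 10 of the 55487 genes in the deposited tables, taken by their symbols. They are the alpha subunit genes Gnai2, Gnaq, Gna13 and Gnaz, the beta subunit genes Gnb1 and Gnb2, the gamma subunit genes Gng11 and Gng5, and the regulators Rgs18 and Rgs10. Each symbol was found on 1 row of the count table and 1 row of the TPM table. TPM, transcripts per 1000000 transcripts a level corrected for transcript length, was used to compare genes with each other. CPM, counts per 1000000 counts of a library after TMM scaling, was used to compare libraries.

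The platelet RNA came from 8 male mice aged 13 weeks, with 1 library per mouse. The labels give 4 mice as Dnmt3a+/-, heterozygous for a gene that encodes a de novo DNA methyltransferase, and 4 as WT littermates, and no treatment is named for either genotype. The platelets were taken from platelet-rich plasma and depleted with beads against Ter119, a red cell antigen, and CD45, a leukocyte antigen, and the RNA was read as stranded polyadenylated libraries. The construction of the Dnmt3a allele is not stated in the labels. The title of the study places it in work on DNMT3A and stem cells biased toward megakaryocytes, the parent cells of platelets.

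A heterotrimeric G protein is made of an alpha subunit, which binds GTP, and a dimer of a beta and a gamma subunit. An activated receptor loads the alpha subunit with GTP, the alpha subunit and the dimer then act on their own effectors, and hydrolysis of GTP brings them together again. RGS proteins speed that hydrolysis. In platelets, receptors for thrombin, thromboxane and ADP act mainly through Gq, G13 and Gi, while prostacyclin acts through Gs and raises cyclic AMP, which restrains activation.

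DNMT3A adds methyl groups to cytosine in the sequence CG, and DNA methylation was not measured in these libraries. The windows of 250 bases upstream of the RefSeq start sites of Gnaq, Gna13 and Gnb1 (build GRCm38.p6, all on the plus strand, 5′ to 3′) are shown with every CG in capitals, because they let the CG content of these genes be seen. Gnaq lies at chr19:16132434-16132683, Gna13 at chr11:109362544-109362793 and Gnb1 at chr4:155491111-155491360.
Gnaq: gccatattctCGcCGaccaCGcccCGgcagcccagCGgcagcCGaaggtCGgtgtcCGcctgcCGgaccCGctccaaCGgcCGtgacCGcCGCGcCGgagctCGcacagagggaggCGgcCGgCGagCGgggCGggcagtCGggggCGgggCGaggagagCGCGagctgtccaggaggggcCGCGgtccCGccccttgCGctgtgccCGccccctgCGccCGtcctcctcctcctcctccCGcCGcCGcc
Gna13: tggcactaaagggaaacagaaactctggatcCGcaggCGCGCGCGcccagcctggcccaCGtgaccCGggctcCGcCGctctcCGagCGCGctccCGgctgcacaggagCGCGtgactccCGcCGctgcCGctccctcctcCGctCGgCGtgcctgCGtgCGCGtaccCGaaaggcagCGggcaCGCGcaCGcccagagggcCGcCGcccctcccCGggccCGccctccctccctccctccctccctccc
Gnb1: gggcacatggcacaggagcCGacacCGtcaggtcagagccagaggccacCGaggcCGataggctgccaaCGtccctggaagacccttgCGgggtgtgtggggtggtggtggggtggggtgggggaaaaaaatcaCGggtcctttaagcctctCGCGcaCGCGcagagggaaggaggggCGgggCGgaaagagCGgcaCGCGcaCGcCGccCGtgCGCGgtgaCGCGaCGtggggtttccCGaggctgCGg

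The Gnaq window held 37 CG, that of Gna13 33 and that of Gnb1 26. The windows of Gng5, Rgs10 and Gnb2 held 44, 27 and 12. Over all 32851 RefSeq windows of the same length, the median was 6 CG and the quartiles were 2 and 16. As many CG as in Gng5 were found in 0.5% of windows, and as many as in Gnb2 in 33.5%. The Gnaq, Gna13 and Gnb1 windows lie outside the GENCODE M21 gene, whereas 29 bases of the Gng5 window, 204 of the Gnb2 window and all 250 of the Rgs10 window lie inside it, since other transcripts start further upstream. GATAA, read on both strands as a core of GATA factor motifs, had no match in these 6 windows and at least 1 match in 22.6% of all windows. CCGGAA, read on both strands as a core of ETS factor motifs, had no match in the 6 and was in 12% of all windows. Windows for Gng11, Gnai2, Gnaz and Rgs18 are not shown.

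The libraries held 15185218 to 22160394 counts, and the rarest member in any of them, Gnb2, still had 307 counts. Dnmt3a was at 21.1, 22.1, 19.8 and 18.2 CPM in WT replicates 1 to 4 and at 9.96, 11.5, 24.2 and 19.5 in Dnmt3a+/- replicates 1 to 4. Its transcript level was therefore not below the WT range in Dnmt3a+/- replicates 3 and 4. Since the construction of the allele is not stated, these levels cannot check the genotype, and directions below are between labels. All 12 platelet markers were detected and made up 4.13% to 5.10% of counts. Red cell markers made up 2.02% in WT replicate 1, and the remaining 7 libraries held 0.202% to 0.484%. Of the leukocyte lists, monocyte markers made up 0.341% to 0.648%, while those of T and NK cells, B cells and neutrophils each stayed at or below 0.000787%, with Camp, Elane, Cd3e and Cd3g at 0 in all 8 libraries. Hepatocyte markers made up 0.00107% to 0.117% in WT libraries and 5.04e-05% to 0.0113% in Dnmt3a+/- libraries. The part of these other cell types in the results was not tested.

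One isoform led each family of subunits, and the lead differed in size between families. Among 12 gamma genes, Gng11 took 96.2% of the family's TPM; among 16 alpha genes, Gnas took 85.2% and Gnai2 13.0%; among 5 beta genes, Gnb1 took 68.5% and Gnb2 29.3% (means of 8 libraries). Among 21 RGS genes, Rgs10 took 60.1% and Rgs18 39.7%. The plot of TPM by family shows the spread over the libraries.

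**Figure D1:**
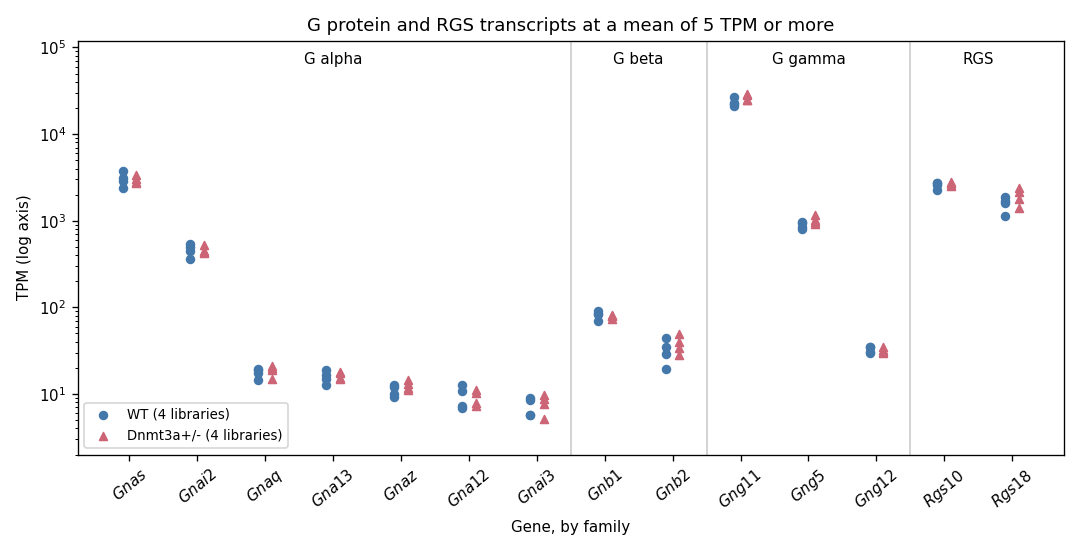
TPM per library on a log axis for the 14 genes of the 4 families with a mean of at least 5 TPM; circles are WT libraries and triangles Dnmt3a+/- libraries. Gng11 lies at 21138 TPM or more in every library, while Gna13, Gnaz, Gna12 and Gnai3 lie at 18.8 TPM or less.

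The order of the 10 members by mean TPM was Gng11 (24925), Rgs10 (2611), Rgs18 (1752), Gng5 (954), Gnai2 (461), Gnb1 (80.1), Gnb2 (34.9), Gnaq (18.1), Gna13 (16.1) and Gnaz (11.8). The ranges over the 8 libraries did not overlap between Gng11 and Rgs10, Gng5 and Gnai2, Gnai2 and Gnb1, or Gnb1 and Gnb2. They did overlap between Rgs10 and Rgs18, Rgs18 and Gng5, Gnb2 and Gnaq, Gnaq and Gna13, and Gna13 and Gnaz. Within single libraries the order of neighbours was kept in 8 of 8 libraries, except that Gnaq exceeded Gna13 in 7 of 8.

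Between the labels, none of the 10 members passed the test. In edgeR's quasi-likelihood fit over 7362 genes, 0 of 10 members had an adjusted p under 0.05, as did 0 of all genes (0%). At an unadjusted p under 0.05 the count was 0 of 10 members against 362 genes (4.92%), and the 4 values of one label lay apart from the 4 of the other in 0 of 10 members against 187 genes (2.54%). DESeq2 called 15 genes and limma on log2 TPM called 0, with no member among them. The log2 fold changes, Dnmt3a+/- minus WT, were positive in 7 members and negative in 3, with a median of 0.105, beside a median of -0.005 over all tested genes. They ran from -0.06 for Gnb1 to 0.24 for Rgs18, with edgeR adjusted p-values from 0.998 to 0.999. The plot of CPM per library shows that the labels overlapped for every member.

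**Figure D2:**
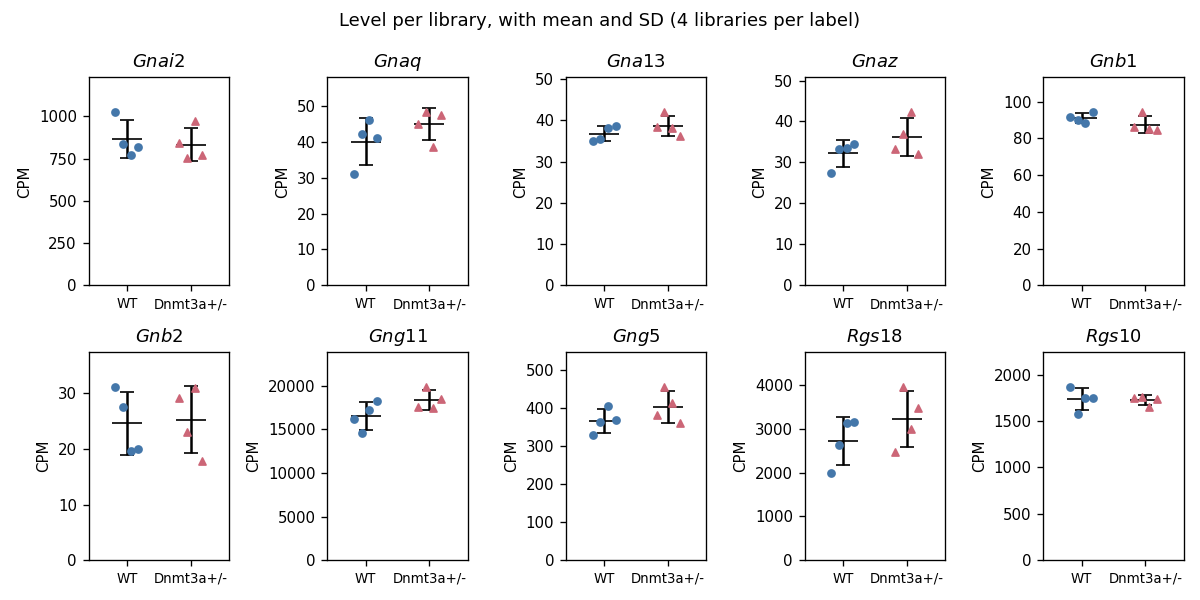
CPM per library for the 10 members, by label, with the mean and SD of 4 libraries as bars; each axis starts at 0. The points of the labels overlap in all 10 panels.

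Gnai2 (chr9:107614125-107635367, minus strand; all gene positions are from GENCODE M21 on GRCm38) encodes the inhibitory alpha subunit that couples the ADP receptor P2Y12 to adenylyl cyclase. It held 1027, 836, 772 and 820 CPM in WT replicates 1 to 4 and 840, 755, 971 and 769 in Dnmt3a+/- replicates 1 to 4. The highest value of each label, in WT replicate 1 and Dnmt3a+/- replicate 3, exceeded all others of both labels, and the ranges overlapped. The means were 863.9 ± 112 and 833.8 ± 98.6 (SD, n = 4 each), a log2 fold change of -0.05 (SE 0.12; edgeR adjusted p = 0.998). In bulk platelet RNA, fewer platelets of a kind and less RNA per platelet cannot be told apart.

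Gnai2 was the main inhibitory alpha transcript in these platelets. Gnai3, its close relative, had a mean of 7.53 TPM, and the Gnai2 to Gnai3 ratio ran from 43.5 to 94.9. Gnaz had a mean of 11.8 TPM. The stimulatory subunit gene Gnas, which is not a member, was at 2392 to 3780 TPM, or 5.76 to 7.57 times Gnai2. Gnas has 24 annotated transcripts and genes on its opposite strand, and since the strand setting of the counting is not given, its level is less certain than that of Gnai2.

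Gnaq (chr19:16132831-16387463, plus strand) encodes the alpha subunit that activates phospholipase C beta below thrombin, thromboxane and P2Y1 receptors. It held 30.9, 42.3, 46.0 and 41.0 CPM in the WT libraries and 45.0, 48.3, 38.6 and 47.6 in the Dnmt3a+/- libraries. WT replicate 1 was the lowest of the 8, and the other 7 lay within 38.6 to 48.3. The log2 fold change was 0.16 (SE 0.14; edgeR adjusted p = 0.998), and it was 0.06 without WT replicate 1.

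Gna13 (chr11:109362831-109401369, plus strand) encodes the alpha subunit that drives platelet shape change. It held 35.0, 35.4, 38.1 and 38.5 CPM in the WT libraries and 38.4, 42.0, 38.2 and 36.2 in the Dnmt3a+/- libraries. Its highest value exceeded its lowest by 1.20 times, and its SD of log2 CPM over the 8 libraries stood at percentile 1.7 of all tested genes. Here and for the members below, that percentile is among tested genes of every abundance, and genes of like abundance were not compared. The log2 fold change was 0.07 (SE 0.10; edgeR adjusted p = 0.998). An exon of Gm11696, an antisense gene at 6.3 to 11.5 CPM, overlaps Gna13, and reads of the pair can be told apart only if the counting used strand. The sister gene Gna12 had a mean of 9.29 TPM, and Gna13 exceeded it 1.37 to 2.27 times.

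Gnaz (chr10:74967177-75016907, plus strand) encodes an inhibitory alpha subunit that, in platelets, couples to the adrenaline receptor and hydrolyses GTP slowly. It held 27.4, 33.3, 33.4 and 34.6 CPM in the WT libraries and 33.4, 36.9, 42.3 and 32.2 in the Dnmt3a+/- libraries. The lowest value was WT replicate 1 and the highest Dnmt3a+/- replicate 3, with the other 6 between 32.2 and 36.9. The log2 fold change was 0.17 (SE 0.13; edgeR adjusted p = 0.998).

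The remaining 9 alpha genes of the tables were below 1 TPM on average, and 2 of them were at 0 in every library. The 7 alpha genes at 5 TPM or more were Gnas, Gnai2, Gnaq, Gna13, Gna12, Gnaz and Gnai3. The sum over the family was 3572 ± 660 TPM in WT and 3518 ± 297 in Dnmt3a+/- libraries (SD, n = 4 each). Gnas held 85.2% ± 0.60 of that sum in WT and 85.1% ± 1.29 in Dnmt3a+/- libraries, and Gnai2 held 13.0% ± 0.45 and 13.0% ± 1.25. Of the 7 tested alpha genes, 4 had a positive and 3 a negative log2 fold change (median 0.07), and 0 passed the edgeR test.

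Gnb1 (chr4:155491361-155559269, plus strand) and Gnb2 (chr5:137528127-137533510, minus strand) encode the beta subunits, which bind gamma subunits in a tight dimer that signals to phosphoinositide 3-kinase and other effectors. Gnb1 held 91.8, 89.9, 88.5 and 94.5 CPM in the WT libraries and 86.1, 94.4, 85.0 and 84.7 in the Dnmt3a+/- libraries. Its largest value was 1.12 times its smallest, and its SD of log2 CPM stood at percentile 0.3 of all tested genes, the lowest percentile of the 10 members. The log2 fold change was -0.06 (SE 0.09; edgeR adjusted p = 0.998).

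Gnb2 varied over the libraries far more than Gnb1, within each label. It held 31.2, 27.6, 19.6 and 20.0 CPM in the WT libraries and 29.1, 23.0, 31.0 and 17.8 in the Dnmt3a+/- libraries. Both labels had libraries near 30 and near 20 CPM, and the log2 fold change was 0.03 (SE 0.21; edgeR adjusted p = 0.999). Exons of Epo and Mir6418 overlap Gnb2 on the same strand. Epo had 0 counts in every library.

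Gnb5 lay between 1 and 5 TPM on average, Gnb4 was below 1, and Gnb3 was at 0 in every library. Gnb1 held 70.8% ± 4.58 of the beta sum in WT and 66.2% ± 5.34 in Dnmt3a+/- libraries, while Gnb2 held 26.9% ± 5.20 and 31.7% ± 5.74. Over single libraries the Gnb1 share ran from 60.3% to 75.1%, and the labels overlapped. Of the 3 tested beta genes, 2 had a positive and 1 a negative log2 fold change (median 0.02), and 0 passed the edgeR test.

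Gng11 (chr6:4003904-4008445, plus strand) encodes a farnesylated gamma subunit and was the most abundant member by far. Its mean TPM ranked 6 among all 55487 genes, and it took 1.56% to 2.02% of all counts of a library. It held 16145, 14540, 17199 and 18248 CPM in the WT libraries and 17593, 19897, 17432 and 18446 in the Dnmt3a+/- libraries. The lowest 3 values were WT and the highest was Dnmt3a+/- replicate 2, but WT replicate 4 exceeded Dnmt3a+/- replicates 1 and 3. The means were 16533 ± 1582 and 18342 ± 1128 (SD, n = 4 each), a log2 fold change of 0.15 (SE 0.11; edgeR adjusted p = 0.998).

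Gng5 (chr3:146499807-146505572, plus strand) encodes a geranylgeranylated gamma subunit. It held 329, 364, 407 and 370 CPM in the WT libraries and 383, 457, 415 and 361 in the Dnmt3a+/- libraries. Dnmt3a+/- replicate 2 was highest, as for Gng11, and the labels overlapped. The log2 fold change was 0.14 (SE 0.10; edgeR adjusted p = 0.998). The pseudogene Gng5-ps had 0 to 3 counts, so few reads were assigned to it.

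Gng12 was the only other gamma gene at 5 TPM or more, with a mean of 32.2 TPM. Of the other 9 gamma genes, 7 were below 1 TPM and 2 between 1 and 5. Of the 6 tested gamma genes, 3 had a positive and 3 a negative log2 fold change (median 0.05), and 0 passed the edgeR test. The Gng11 share of the gamma sum stayed within 95.7% to 96.6% over the 8 libraries. The gamma sum was 180 to 260 times the beta sum in TPM, and the alpha sum was 27.7 to 33.9 times the beta sum. These are ratios of transcripts and not of proteins.

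Rgs18 (chr1:144752683-144775435, minus strand) encodes an RGS protein of megakaryocytes and platelets that acts on Gi and Gq subunits. It held 2003, 2634, 3150 and 3154 CPM in the WT libraries and 2482, 3972, 3003 and 3486 in the Dnmt3a+/- libraries. WT replicate 1 was lowest and Dnmt3a+/- replicate 2 highest, 1.98 times apart, and the other 6 libraries of both labels were interleaved. The means were 2735 ± 546 and 3236 ± 640 (SD, n = 4 each), a log2 fold change of 0.24 (SE 0.17; edgeR adjusted p = 0.998). Without WT replicate 1 the log2 fold change was 0.12, and without Dnmt3a+/- replicate 2 it was also 0.12.

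Rgs10 (chr7:128373621-128418758, minus strand) encodes a small RGS protein made of little more than the RGS domain. It held 1871, 1577, 1746 and 1753 CPM in the WT libraries and 1751, 1764, 1653 and 1742 in the Dnmt3a+/- libraries. The means were 1737 ± 121 and 1728 ± 50.6 (SD, n = 4 each), a log2 fold change of -0.01 (SE 0.09; edgeR adjusted p = 0.999). Its SD of log2 CPM stood at percentile 0.8 of all tested genes, whereas that of Rgs18 stood at percentile 61.5.

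No other RGS gene reached a mean of 5 TPM, 15 of the 21 were below 1 and 2 were at 0 in every library. The RGS sum was 0.889 to 1.58 times the alpha sum in TPM. Of the 8 tested RGS genes, 4 had a positive and 4 a negative log2 fold change (median 0.01), and 0 passed the edgeR test.

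Ratios between members of a family were then compared between the labels, by exact permutation of the 8 library labels, two-sided (70 arrangements, smallest possible p 0.0286), with p adjusted over 6 ratios. All 6 overlapped between the labels. A ratio within a library does not depend on library scaling, but it was not corrected for base composition, which is described below. The plot of ratios gives each ratio from TPM and from counts, and these can differ.

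**Figure D3:**
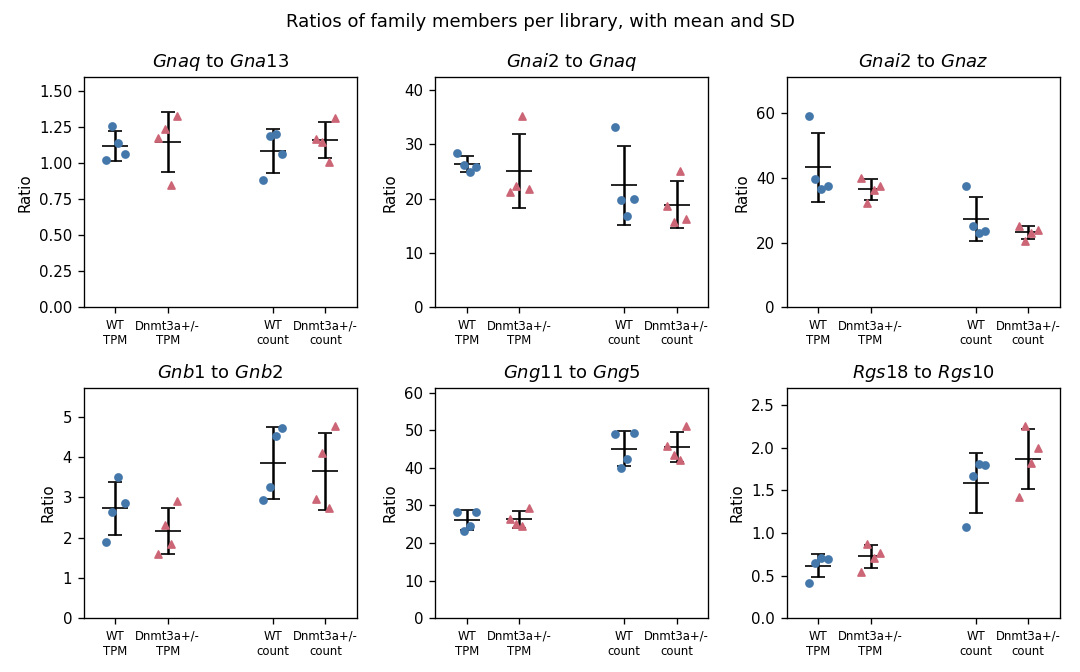
Ratio of each pair of members per library, from TPM (left of each panel) and from estimated counts (right), by label, with the mean and SD of 4 libraries. The Gng11 to Gng5 ratio spans 23.3 to 29.2 in TPM, while Gnb1 to Gnb2 spans 1.58 to 3.50.

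The Gng11 to Gng5 ratio was the steadiest of the 6, with an SD of 0.12 on the log2 scale over the 8 libraries. It was 28.3, 23.3, 24.6 and 28.4 in WT and 26.4, 25.0, 24.4 and 29.2 in Dnmt3a+/- libraries, a log2 difference of 0.01 (SE 0.09; exact permutation p = 0.914, adjusted 0.943). The pair of gamma genes thus kept a ratio within 1.26 times over libraries of both labels.

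The Rgs18 to Rgs10 ratio was 0.416, 0.653, 0.707 and 0.696 in WT and 0.548, 0.870, 0.709 and 0.771 in Dnmt3a+/- libraries. Rgs10 had the higher TPM in all 8, and the ratio was lowest in WT replicate 1 and highest in Dnmt3a+/- replicate 2. The log2 difference was 0.24 (SE 0.23; exact permutation p = 0.343, adjusted 0.686), and it was 0.06 without WT replicate 1. In counts, which are not corrected for length, Rgs18 exceeded Rgs10 in all 8 libraries, by 1.07 to 2.25 times.

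The Gnai2 to Gnaz ratio, of Gi class subunits, was 59.1, 39.4, 36.5 and 37.5 in WT and 39.8, 32.1, 36.1 and 37.4 in Dnmt3a+/- libraries. WT replicate 1 stood above the other 7, and the log2 difference was -0.22 (SE 0.18; exact permutation p = 0.257, adjusted 0.686), or -0.06 without WT replicate 1. The Gnai2 to Gnaq ratio was 28.3, 26.3, 24.9 and 25.8 in WT and 21.2, 22.4, 35.3 and 21.8 in Dnmt3a+/- libraries. In that ratio 3 Dnmt3a+/- libraries lay below all WT libraries and the fourth, replicate 3, above them, a log2 difference of -0.10 (SE 0.18; exact permutation p = 0.686, adjusted 0.943). Without Dnmt3a+/- replicate 3 it was -0.27 (exact permutation adjusted p = 0.171), and without Dnmt3a+/- replicate 1 it was -0.03. Replicate 3 was singled out from these same values, and 0.171 is the lowest adjusted p that 1 ratio alone can reach. From counts the lone high library of the Gnai2 to Gnaq ratio was WT replicate 1, at 33.2, with Dnmt3a+/- replicate 3 next at 25.1. Also from counts, Dnmt3a+/- replicate 1 (18.6) lay above WT replicate 3 (16.8), so the 3 libraries did not all lie below WT.

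The Gnaq to Gna13 ratio was near 1, at 1.02, 1.26, 1.14 and 1.06 in WT and 1.18, 1.24, 0.849 and 1.33 in Dnmt3a+/- libraries. Gna13 exceeded Gnaq in TPM only in Dnmt3a+/- replicate 3, and the log2 difference was 0.02 (SE 0.16; exact permutation p = 0.943, adjusted 0.943). In counts the only library with Gna13 above Gnaq was instead WT replicate 1, with a ratio of 0.882.

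The Gnb1 to Gnb2 ratio was the least steady, with an SD of 0.39 on the log2 scale. It was 1.90, 2.64, 3.50 and 2.85 in WT and 1.58, 2.32, 1.85 and 2.90 in Dnmt3a+/- libraries, a log2 difference of -0.34 (SE 0.27; exact permutation p = 0.257, adjusted 0.686). It was -0.20 without WT replicate 3 and also -0.20 without Dnmt3a+/- replicate 1. Gnb1 exceeded Gnb2 in all 8 libraries. From counts the log2 difference was -0.09 (SE 0.26; exact permutation p = 0.657, adjusted 0.789).

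Counts and TPM parted for Gnaq, Gna13 and Gnb2 because the length by which the deposited TPM divides a gene's counts differed between libraries. That effective length was taken as count over TPM, scaled in each library by 191 genes with a single transcript, and given relative to the gene's own mean. It ranged 1.73 times for Gnaq, 1.57 times for Gna13, 1.53 times for Gnb2 and 1.14 times for Gnb1, and 1.00 to 1.02 times for the other 6 members. The median over 1882 genes at 10 TPM or more was 1.07 times.

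For Gnaq the relative length was 0.663 in WT replicate 1, against 0.883 to 1.15 in the remaining 7. Gna13 was also shortest in WT replicate 1, at 0.766, against 0.884 to 1.20 elsewhere. The CPM of Gnaq in WT replicate 1, which uses no length, was the lowest of the 8. Its TPM there, which divides by the shorter length, was 19.2, the highest of the 4 WT libraries. For Gnb2 the relative length had a mean of 1.07 in WT and 0.928 in Dnmt3a+/- libraries. It ran from 0.952 to 1.196 in WT and from 0.782 to 1.065 in Dnmt3a+/- libraries. The labels thus overlapped, and the difference was not tested. GENCODE M21 lists 3 transcripts for Gnaq, 2 for Gna13 and 15 for Gnb2, but also 10 for Gnai2, whose length ranged only 1.02 times. The tables give 1 value per gene, so levels of single transcripts were not analysed here.

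**Figure D4:**
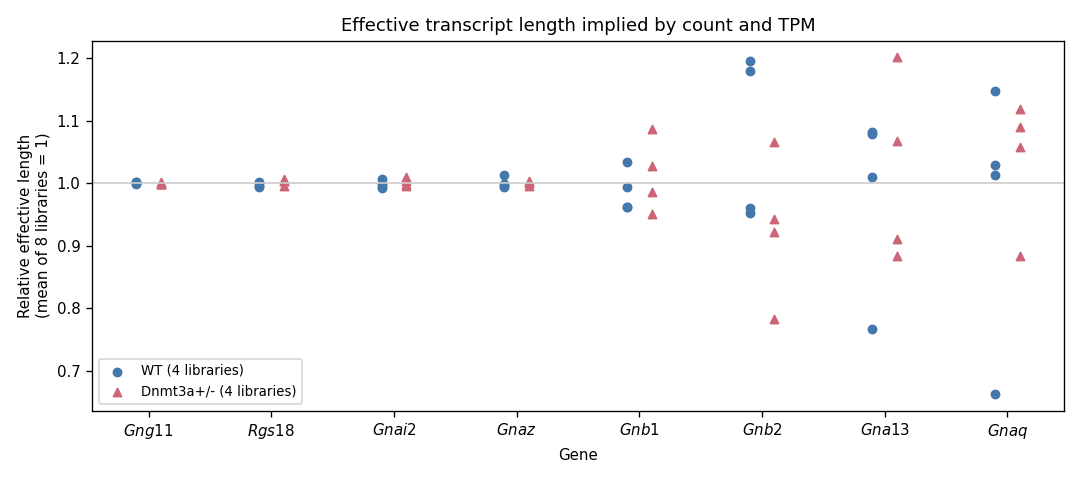
Effective length relative to the gene's mean over 8 libraries, for 8 of the members; circles are WT and triangles Dnmt3a+/- libraries. Gng11, Rgs18, Gnai2 and Gnaz lie on 1, whereas Gnaq runs from 0.663 to 1.15.

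Base composition of the libraries moved with 3 of the members. For each library, the slope of log2 CPM against the GC content of transcripts was taken over 7354 of the 7362 tested genes, relative to the mean of the libraries. It was 0.24, 0.06, -0.11 and -0.13 per 10 GC points in WT replicates 1 to 4 and 0.12, -0.13, 0.12 and -0.17 in Dnmt3a+/- replicates 1 to 4, so 2 libraries of each label had a positive slope and 2 a negative one. Rgs18, with the lowest median GC of the members (33.4%), held 2003 to 3003 CPM in the 4 libraries with a positive slope and 3150 to 3972 in the 4 with a negative slope. Gnb2, with the highest (59.6%), held 27.6 to 31.2 and 17.8 to 23.0 CPM, and Gnai2 (56.0%) held 836 to 1027 and 755 to 820.

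These 3 members, of 10, did not overlap between libraries of positive and negative slope, a split made after seeing the data. The same held for 11.5% of all tested genes. Since the 3 members were picked by these slopes, a lower SD after removing the GC line adds no separate evidence. With the GC line removed from each library, the SD of log2 CPM over the 8 libraries went from 0.31 to 0.16 for Rgs18, from 0.32 to 0.19 for Gnb2 and from 0.16 to 0.10 for Gnai2. It became larger in 6 of the 10 members, for example from 0.14 to 0.18 for Gng11, and smaller in 4. The median SD over all tested genes went from 0.27 to 0.26. From counts, the Gnb1 to Gnb2 ratio was 2.74 to 3.26 in libraries of positive slope and 4.11 to 4.76 in those of negative slope. From TPM its ranges were 1.58 to 2.64 and 2.32 to 3.50, which overlap. The other ratios overlapped between these libraries from both measures. Whether composition accounts for the spread of these genes or ratios was not tested.

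**Figure D5:**
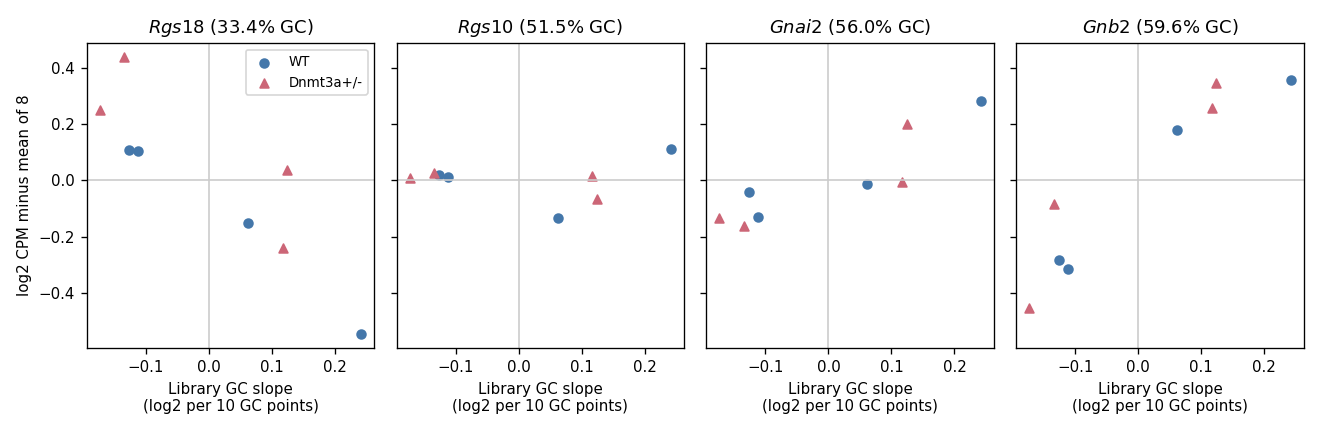
The log2 CPM of 4 members minus its mean over the 8 libraries, against the GC slope of the library; circles are WT and triangles Dnmt3a+/- libraries. Rgs18 lies higher, and Gnai2 and Gnb2 lower, in the 4 libraries with a negative slope, which are 2 of each label.

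Within the libraries of positive slope (2 of each label) the log2 difference of Rgs18 was 0.25, and within those of negative slope 0.24, beside 0.24 over all 8. Gnb2 gave 0.03 within both, and Gnai2 gave -0.04 and -0.06. Gnaz gave 0.31 within the positive and 0.02 within the negative set. In an edgeR fit with GC-corrected offsets, Rgs18 had a log2 fold change of 0.27 with an unadjusted p of 0.027, and 0 genes passed the adjusted threshold. An unadjusted p under 0.05 was found for 559 of 7354 genes (7.6%) in that fit. Of these, 359 were higher and 200 lower in Dnmt3a+/- libraries, beside 127 higher and 235 lower in the main fit. That correction moved the median of all genes to 0.06, and the fold changes of Rgs18 (0.27), Gng11 (0.22), Gng5 (0.21) and Gnaq (0.23) moved up with it. The p-value of Rgs18 in that edgeR fit is against 0 and not against that median.

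Genes with the pattern most like a member were taken as those whose log2 ratio to it had the smallest SD over the 8 libraries, among 2741 genes at 10 CPM or more. All points share their libraries, and with them depth and base composition, so these values describe the libraries only. Nearest to Gng11 was Rnf181, a ubiquitin ligase, with an SD of 0.04, where the median over genes was 0.22. Nearest to Gnai2 was Dhrs3, a retinal reductase, with an SD of 0.03, and then Arrb2, beta-arrestin 2, with 0.04 (median over genes 0.23). Nearest to Rgs18 were Rap1b, a small GTPase, and Ywhaz, a 14-3-3 protein, with 0.05 and 0.06 (median over genes 0.35). Nearest to Gnaq was Hbp1, a transcription factor, with 0.06 (median over genes 0.28).

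Receptors, effectors and regulators around the G proteins were listed by their known function. Of 18 platelet G protein-coupled receptor genes, 11 were below 1 TPM on average and 8 were tested. Of the 8, 7 had a positive log2 fold change, beside 3610 of all 7362 tested genes. The median was 0.10, and 0 passed the edgeR test. P2ry12, the Gi-coupled ADP receptor, led the list at a mean of 1671 TPM. It held 2211, 2705, 2902 and 3142 CPM in the WT libraries and 2809, 4261, 3070 and 3439 in the Dnmt3a+/- libraries, a log2 fold change of 0.31 (SE 0.15; edgeR adjusted p = 0.987). As for Rgs18, WT replicate 1 was lowest and Dnmt3a+/- replicate 2 highest.

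P2ry1, the Gq-coupled ADP receptor, had a mean of 27.0 TPM and was the only gene of the 3 lists with an unadjusted p under 0.05. That is 1 of 31 tested genes (3.23%), beside 4.92% of all genes tested. It held 51.2, 60.3, 63.9 and 62.9 CPM in WT and 63.1, 80.4, 69.1 and 76.9 in Dnmt3a+/- libraries, so only Dnmt3a+/- replicate 1 lay within the WT range. Its log2 fold change was 0.28 (SE 0.11), with an unadjusted p of 0.0313 and an edgeR adjusted p of 0.971. F2rl2, a protease-activated receptor, had a mean of 207 TPM.

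Of 23 effector genes, 12 were tested, 8 had a positive and 4 a negative log2 fold change (median 0.11), and 0 passed the test or had an unadjusted p under 0.05. The most abundant were the small GTPase gene Rhoa (133 TPM) and the guanine nucleotide exchange factor genes Arhgef12 (75.2 TPM), which acts below G13, and Kalrn (30.7 TPM). Of 17 regulators and chaperones, 11 were tested, 5 had a positive and 6 a negative log2 fold change (median -0.02), and 0 passed. The arrestin genes Arrb2 (245 TPM) and Arrb1 (133 TPM), and Grk5 (90.5 TPM), a receptor kinase, led that list.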

How the data were processed

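Platelet RNA of 4 WT and 4 Dnmt3a+/- mice was analysed from the tables that the authors deposited, which give an estimated count and a TPM per gene and library. The tools named, per the submitters' processing notes, are STAR, RSEM, cutadapt and DESeq2 on mm10, with no role or version. Annotation release and strand setting are not given in the sources used here. As deposited by the authors, the estimated counts were already whole; they were rounded and fitted with edgeR 4.0.16 in R 4.3.3: filterByExpr (minimum count 10, minimum total 15), TMM factors, glmQLFit, glmQLFTest, and p-values adjusted by Benjamini-Hochberg over 7362 genes at a threshold of 0.05. The deposited TPM values served for levels between genes, shares and ratios, and ratios were tested on the log2 scale by exact permutation. Counts of any pair of libraries differed beyond sampling noise (chi-square per degree of freedom at least 12.3), and the labels call the samples biological replicates, so each was 1 replicate. Totals of 15185218 to 22160394 counts set the precision, and errors are SDs between mice.

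The members and lists were chosen with earlier results of these data known. Named beyond the members were family genes at a mean of 5 TPM or more, the 3 most abundant genes of each pathway list with up to 2 per direction at an unadjusted p under 0.05, Dnmt3a, and the genes most like Gng11, Gnaq, Gnai2 and Rgs18. Alternatives were other scaling factors, other filters, DESeq2 1.42.0, limma 3.58.1 on log2 TPM, leaving out each library, a replicate block and, added after seeing the data, a GC correction from GENCODE M21 transcripts, which hold 55141 of the 55487 identifiers. Promoter windows came from RefSeq on GRCm38.p6, where 6 of 10 members were matched. The scripts were tested on simulated data.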

Additional observations from a re-analysis of the deposited data

Results flagged for a closer look

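Of 52 sets of 4 values looked at, 3 held a library far from the other 3 of its label. About 1 in 20 such sets shows this by chance. The TPM ratio of Gnai2 to Gnaz was 59.1 in WT replicate 1, against 36.5 to 39.4 in the other WT libraries. The TPM ratio of Gnai2 to Gnaq was 35.3 in Dnmt3a+/- replicate 3, against 21.2 to 22.4 in the others of that label. Gnb1 was at 94.4 CPM in Dnmt3a+/- replicate 2, against 84.7 to 86.1 in the others.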

How the results depend on the processing

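No member passed its threshold under any alternative run. The ratios had little room to pass, since 1 ratio alone can reach an adjusted p of 0.171 at best, and the replicate block cannot go below an unadjusted 0.125. Of 170 alternative values of the members' log2 fold changes, 156 kept the direction and 14 turned it, in Gnai2, Gnb2 and Rgs10. Gnai2 turned to 0.031 with the GC correction, chosen after seeing the data. Rgs10 turned to 0.015 with upper-quartile factors, 0.0058 without a filter on low counts, 0.042 in limma at either pseudocount and 0.061 with the GC correction. Leaving out 1 library at a time gave -0.124 to 0.042 for Gnai2, -0.073 to 0.172 for Gnb2 and -0.051 to 0.029 for Rgs10. Other log2 fold changes moved by over 1.5 times but kept direction, and they include the following. In limma on log2 TPM, at pseudocounts of 1 and 0.1, Gnb2 was 0.276 and 0.285, beside 0.034 in the main fit. Gnaq was 0.085 and 0.089 in the same limma fits, beside 0.165. With the GC correction, Gna13 was 0.147, Gng5 0.207 and Gnb1 -0.00083, and with upper-quartile factors Gnb1 was -0.037. Gnaq, Gnaz and Gng5 were 0.059, 0.097 and 0.086 without WT replicate 1. Gng11 was 0.093 without WT replicate 2, and Gnaz was 0.091 without Dnmt3a+/- replicate 3. Gna13, Gng5 and Gnb1 were 0.023, 0.063 and -0.105 without Dnmt3a+/- replicate 2. Gnb1 was -0.036 without WT replicate 4 and -0.037 without Dnmt3a+/- replicate 3. Rgs18 was 0.119 without WT replicate 1 and 0.120 without Dnmt3a+/- replicate 2. Of 66 alternative ratio values, 7 turned direction. Leaving out 1 library gave -0.058 to 0.158 for Gnaq to Gna13 and -0.046 to 0.050 for Gng11 to Gng5. Over all genes, edgeR called 250 without a filter, DESeq2 called 15, and leaving out 1 library gave 0 to 135, the highest without WT replicate 1, beside 0 with all 8 libraries and the filter. The replicate block called 0 genes (494 at an unadjusted p under 0.05), and same-numbered libraries correlated at -0.098 to 0.114 in their deviations, so the numbers were not taken as pairs. With 4 libraries per label, the members' log2 fold changes had SEs of 0.09 to 0.21.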
